A study of Mus musculus with 2 samples.

Results

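The regions described are the H3K9me3 peaks that lie closest to the centromeres of the mouse autosomes. They were chosen by position alone: every deposited peak on chromosomes 1 to 19 that ended at or before 6 Mb, which is the first 3 Mb of assembled sequence after the 3 Mb gap that stands in for the centromere. Of the 40119 peaks in the list, 1083 met this rule, and 36821 lay on the rest of the autosomes. No peak crossed the 6 Mb border and none began inside the gap. H3K9me3, trimethylation of lysine 9 of histone H3, was measured by chromatin immunoprecipitation and sequencing (ChIP-seq) in intestinal stem cells, sorted by flow cytometry as GFP high and CD24 low. The cells came from 12 pooled C57BL/6 mice aged 8 weeks that carried Lgr5-EGFP-IRES-creERT2, which places GFP and an inducible Cre under the control of the stem cell gene Lgr5, together with setdb1fl/fl, a floxed Setdb1 gene. The labels do not say whether Cre had been induced. There was 1 ChIP library and 1 control library of the same cells, titled input and given IgG as its antibody, so no difference between conditions could be tested. A peak list measures no expression, and the sorted cell type could not be checked against marker genes here. Positions are on GRCm38 (mm10).

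Mouse autosomes carry their centromere at one end. Next to it lie long arrays of satellite repeats packed as pericentromeric heterochromatin, where H3K9me3 is laid down by Suv39h1 and Suv39h2 and read by HP1 proteins. Setdb1, another H3K9 methyltransferase, is brought to retroviral elements and imprinted control regions by zinc finger proteins. The long satellite arrays fall in the assembly gap, where the list holds no peak, and the peaks described here lie in the assembled sequence that follows. Whether that sequence holds satellite copies, and how well reads map to it, was not analysed.

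A few promoters show the range of sequence found under these peaks. Promoter windows, from RefSeq on GRCm38.p6, run from 250 bases before to 50 after a gene start and are printed 5′ to 3′ on the strand of the gene, with CpG dinucleotides in capitals. The first 3 lie under peaks among the tallest 10% of the list, here called strong peaks (at least 50.8 normalized tags, a threshold chosen with earlier results known), and differ in CpG content. The last, of the H3K9 methyltransferase gene Suv39h2, is rich in CpG and lay under no peak.
Rab10os, chr12:3235541-3235840, plus strand: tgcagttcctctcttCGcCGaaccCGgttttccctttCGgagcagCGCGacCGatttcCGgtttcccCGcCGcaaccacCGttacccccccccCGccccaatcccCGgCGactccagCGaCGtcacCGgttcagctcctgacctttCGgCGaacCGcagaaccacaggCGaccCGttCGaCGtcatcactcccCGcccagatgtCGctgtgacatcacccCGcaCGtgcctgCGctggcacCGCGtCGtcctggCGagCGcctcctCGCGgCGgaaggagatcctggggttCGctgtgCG
Osbp2, chr11:3863854-3864153, minus strand: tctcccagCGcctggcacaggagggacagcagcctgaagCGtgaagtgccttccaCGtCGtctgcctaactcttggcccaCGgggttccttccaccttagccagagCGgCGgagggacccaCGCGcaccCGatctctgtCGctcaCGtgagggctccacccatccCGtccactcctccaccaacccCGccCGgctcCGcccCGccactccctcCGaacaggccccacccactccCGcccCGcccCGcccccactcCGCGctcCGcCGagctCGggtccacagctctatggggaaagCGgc
Rbfox1, chr16:5884543-5884842, plus strand: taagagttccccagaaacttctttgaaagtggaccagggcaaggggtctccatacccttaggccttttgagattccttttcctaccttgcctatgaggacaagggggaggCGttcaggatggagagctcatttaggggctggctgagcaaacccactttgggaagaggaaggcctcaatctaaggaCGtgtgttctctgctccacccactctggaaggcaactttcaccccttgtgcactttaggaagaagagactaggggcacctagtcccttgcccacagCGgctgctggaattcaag
Suv39h2, chr2:3474937-3475236, minus strand: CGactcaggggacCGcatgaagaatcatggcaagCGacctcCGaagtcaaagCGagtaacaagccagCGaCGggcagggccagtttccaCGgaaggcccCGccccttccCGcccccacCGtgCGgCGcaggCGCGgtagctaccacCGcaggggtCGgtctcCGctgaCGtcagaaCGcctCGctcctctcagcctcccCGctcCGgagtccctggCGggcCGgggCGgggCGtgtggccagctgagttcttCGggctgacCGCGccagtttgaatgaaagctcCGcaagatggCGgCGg

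The Rab10os window, at the start of a long non-coding RNA gene, held 39 CpG dinucleotides. Its peak (chr12:3235375-3238290) held 135 ChIP tags (exact Poisson 95% interval 113 to 160) against 12.5 control tags. The Osbp2 window held 27 CpG, and its peak held 50 ChIP tags (37.1 to 65.9) against 4 control tags. Osbp2 encodes an oxysterol-binding protein. The window at a start of Rbfox1, which encodes a neuronal splicing regulator, held 3 CpG under a peak of 57.5 tags (43.6 to 74.4) against 4.5 control tags. The window of Suv39h2 held 33 CpG. Strong peaks thus stood both over CpG-rich and over CpG-poor starts, and a CpG-rich start did not always carry a peak.

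The first 3 Mb held more peaks per Mb than the rest of the autosomes, most of all on chromosome 19. Over all autosomes the density was 19 peaks per Mb (exact Poisson 95% interval 17.9 to 20.2), against 15.7 per Mb in the rest (15.5 to 15.9), a ratio of 1.21 (exact interval 1.14 to 1.29). Intervals here cover counting error alone, and since peaks lie in groups they are narrower than the spread between regions. Peaks covered 1.88% of the first 3 Mb and 1.43% of the rest. Chromosome 19 was far from the other autosomes, with 161 peaks or 53.7 per Mb (45.7 to 62.6), against 13.4 per Mb in its own rest, a ratio of 3.99. It ranked first among the 19 windows of 3 Mb on that chromosome. Without chromosome 19 the ratio over the other autosomes was 1.08 (1.01 to 1.16).

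The other autosomes fell on both sides. The first 3 Mb were denser than the rest of the same chromosome on 12 autosomes and sparser on 7. The interval of the ratio lay above 1 on 6 of them: chromosome 7 (28.3 against 19.4 peaks per Mb), chromosome 11 (31.0 against 20.1), chromosome 13 (20.3 against 13.3), chromosome 14 (21.7 against 12.8), chromosome 16 (22.7 against 13.1) and chromosome 19. It lay below 1 on 3. Chromosome 17 had the fewest peaks of any window, 21 or 7 per Mb (4.33 to 10.7) against 21.7 per Mb in its rest, which placed it 29th of 30 windows. Chromosomes 2 and 5 had 10.0 per Mb each, against 15.7 and 18.9. On the remaining 10 autosomes the interval held 1.

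**Figure D1:**
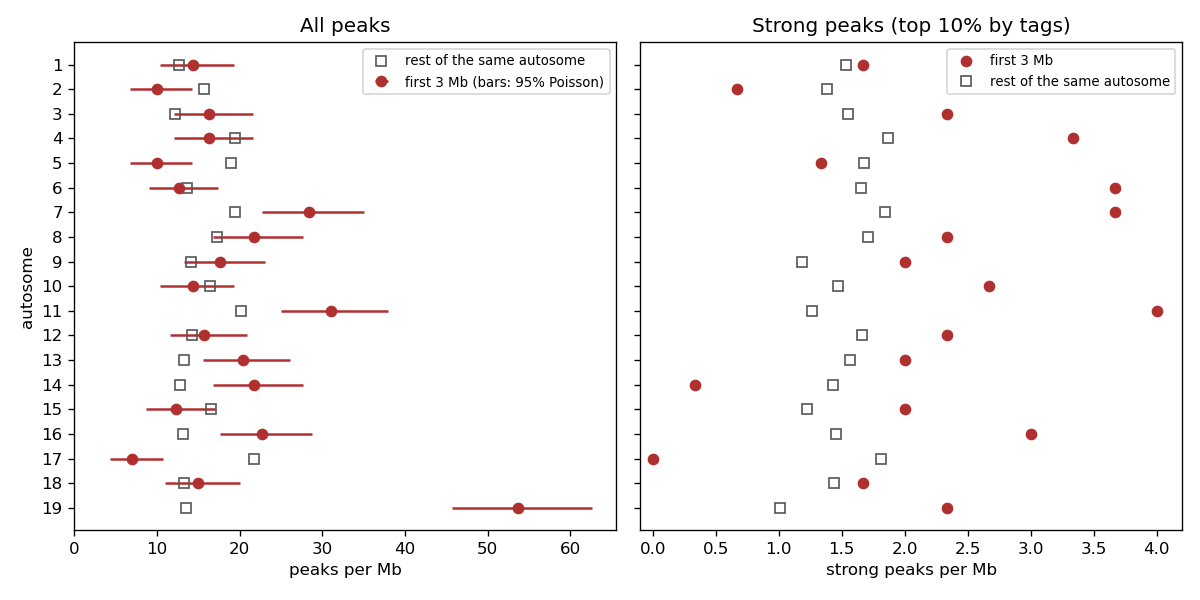
Peaks per Mb (left) and strong peaks per Mb (right) on each autosome, with the first 3 Mb after the assembly gap as filled circles and the rest of the same autosome as open squares; bars in the left panel are exact Poisson 95% intervals. Chromosome 19 stands at 53.7 peaks per Mb and chromosome 17 at 7. Strong peaks are denser in the first 3 Mb on 15 of 19 autosomes, from at most 12 per autosome and without intervals.

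Gene content moved with these densities. The windows of the first 3 Mb held 602 protein-coding genes, from 3 on chromosome 3 to 118 on chromosome 19. Protein-coding genes were denser there than in the rest on 7 autosomes, and all 7 of these also had more peaks per Mb. The 7 autosomes with fewer peaks per Mb all had fewer protein-coding genes per Mb, and the other 5 had more peaks with fewer genes. Counted per protein-coding gene in place of per Mb, the first 3 Mb held 0.975 times as many peaks as the rest (0.917 to 1.04). This interval holds 1, so the excess seen per Mb was not seen per gene. Across the 19 windows the number of peaks and of protein-coding genes had a Spearman correlation of 0.58 and a Pearson correlation of 0.90 (0.50 and 0.78 over 18 windows, without chromosome 19), given as a description of windows from 1 library. The part of gene content in the densities was not tested further. The window with fewest genes, on chromosome 3, held 16.3 peaks per Mb against 12.2 in its rest, a ratio of 1.34 whose interval holds 1 (0.986 to 1.78).

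Strong peaks were denser in the first 3 Mb on more autosomes than peaks as a whole. There were 124 among the 1083 (11.4%, exact Clopper-Pearson 95% interval 9.61 to 13.5%), against 9.83% of all autosomal peaks, a share inside that interval. Per Mb this came to 2.18 against 1.53 in the rest, a ratio of 1.42 (1.18 to 1.70). In the later 3 Mb windows up to 33 Mb the density of strong peaks ranged from 1.18 to 2.09 per Mb. The highest of these, at 18 to 21 Mb, was close to that of the first 3 Mb. Strong peaks were denser in the first 3 Mb on 15 of 19 autosomes. No interval was computed for single autosomes, and the differences ranged widely. Chromosome 1, with 5 strong peaks, had 1.67 against 1.53 per Mb, and chromosome 11 had 4 against 1.27. Chromosomes 11, 6 and 7 held most, with 12, 11 and 11. Chromosome 19 held 7 strong peaks among its 161, chromosome 14 held 1 among 65, and chromosome 17 held none among 21. The order of the autosomes by strong peaks therefore differed from their order by all peaks.

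The strong peaks gathered next to the gap. In the 250 kb that follow it, a distance chosen after the values were seen, the density of strong peaks was 6.53 per Mb (4.43 to 9.26), which was 4.25 times that in the rest of the autosomes (2.88 to 6.05). In the remainder of the window it was 1.78 per Mb, or 1.16 times the rest of the autosomes (0.934 to 1.42), an interval that holds 1. The first 250 kb make up 8.33% of the window and held 11.4% of its peaks, 25% of its strong peaks and 27.2% of its ChIP tags. All peaks stood at 26.1 per Mb in this stretch (21.7 to 31.1) and at 18.4 per Mb in the remainder. The next 250 kb had 21.1 peaks and 1.68 strong peaks per Mb, and the 10 later steps of 250 kb had between 14.1 and 23.2 peaks and between 0.842 and 2.95 strong peaks per Mb. Every autosome had a peak in the first 250 kb, and 10 had a strong one. That spread over autosomes was not particular to this stretch. All 19 also had a peak from 250 to 500 kb and from 1750 to 2000 kb. From 1500 to 1750 kb 11 strong peaks lay on 10 autosomes. Of the 31 strong peaks in the first 250 kb chromosome 11 gave 8, and chromosomes 6, 12 and 16 gave 4 each. Without chromosome 11 the ratio to the rest of the autosomes was 3.30 (2.09 to 4.96). When peaks of over 10 control tags were left out it was 3.13 (1.93 to 4.79).

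**Figure D2:**
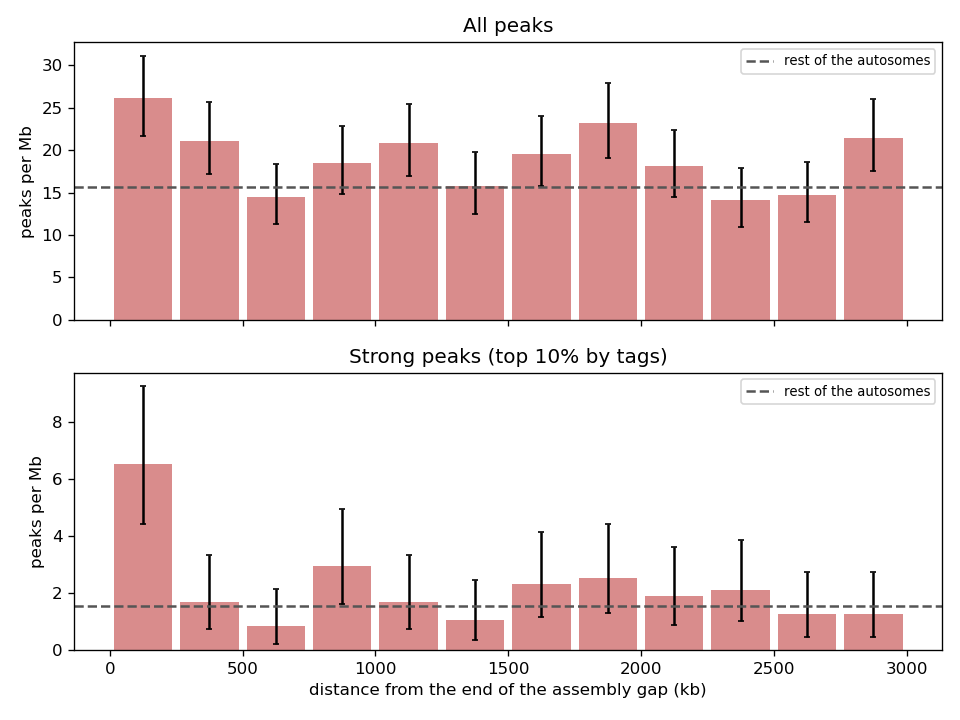
Peaks per Mb (top) and strong peaks per Mb (bottom) over the 19 autosomes in steps of 250 kb from the end of the assembly gap, with exact Poisson 95% intervals; the dashed line is the rest of the autosomes. The first step holds 6.53 strong peaks per Mb and no later step more than 2.95.

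The first 250 kb had few protein-coding genes. Over the autosomes 22 touched this step, against 43 to 83 in each later step of 250 kb. There 8.87% of peak centres lay in protein-coding genes (4.51 to 15.3%), 18.5% in other genes such as pseudogenes and non-coding RNAs (12.1 to 26.5%) and 72.6% between genes (63.8 to 80.2%). Over the whole first 3 Mb 44.2% of peak centres lay in protein-coding genes (41.2 to 47.2%), against 48.2% in the rest of the autosomes (47.7 to 48.7%). This share was 72.0% in the chromosome 19 window. Without chromosome 19 it was 39.4% (36.2 to 42.6%), against 48.0% in the rest, and 50.4% of peak centres lay between genes, against 43.4%. Of the strong peaks of the first 3 Mb 26.6% had their centre in a protein-coding gene (19.1 to 35.3%) and 61.3% between genes (52.1 to 69.9%). The shares for strong peaks of the rest, 31.4% and 60.3%, fell inside these intervals. The first peak of an autosome began between 2.99 kb (chromosome 12) and 218 kb (chromosome 10) after the gap, with a median of 36.3 kb.

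The 3 tallest peaks, by tags in the whole region, all lay in the 250 kb after the gap, as did 14 of the tallest 20. Such a count takes in width as well as height. The caller's score was 161, 13 and 10.5 in these 3, beside a median of 11.5 over the 1083 peaks. The tallest (chr11:3192161-3194247), in the spindle and centrosome gene Sfi1, held 2103 ChIP tags (2014 to 2195) and 144.5 control tags over 2086 bp, with the authors' fold of 9.96. It ranked 11th in the whole list by normalized tags. The second (chr18:3112446-3120941) held 1255 tags (1187 to 1326) against 22 control tags, a fold of 39.03. The third (chr4:3174434-3182886) held 817 tags (762 to 875) against 17.5 control tags, a fold of 31.94. Control tags per kb were 69.3 in the peak at Sfi1 and 2.59 and 2.07 in the other 2, beside 1.91 per kb over all 1083 peaks. Of the 3, the peak at Sfi1 was thus the one with a control level far above the others.

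The peaks on chromosomes 18 and 4 resembled each other in form and place. They were 8495 and 8452 bp wide, began 112 and 174 kb after the gap, and lay beside genes for vomeronasal type 1 receptors, which detect pheromones. The peak on chromosome 18 ended 1551 bp before Vmn1r238. The peak on chromosome 4 lay between Vmn1r2, which ended 1431 bp before it, and Vmn1r3. Each of these receptor genes spans 0.921 kb. A further peak on chromosome 4 (chr4:3163395-3165699), also near Vmn1r2, held 189.5 tags against 2.5 control tags, a fold of 51.86. Whether these stretches are copies of each other was not tested, and reads of near-identical copies cannot be told apart by the counts given.

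On chromosome 11 a stretch over Sfi1 and the neighbouring pseudogene Pisd-ps1 (chr11:3123386-3194247) held 11 peaks, 8 of them strong. Together they had 262 control tags, 12.9% of the control tags in all 1083 peaks, and a summed fold of 8.17. The peaks at chr11:3190595-3191095 and chr11:3188976-3189476 were each 500 bp wide, with 205.5 and 198 ChIP tags and folds of 4.54 and 4.17, near the lowest in the list, 4. The caller's clonal fold, a value it gives per peak on tags stacked at one position, ran from 0.68 in the tallest of the 11 peaks to 0.99, against a median of 0.97 over the autosomes. Pisd-ps1 is 1 of several pseudogene copies of Pisd, a gene for a mitochondrial lipid enzyme, and another of them, Pisd-ps2, held the tallest peak of the chromosome 17 window (chr17:3082383-3083385, 48 tags, 35.4 to 63.6, against 7 control tags). How reads were placed among such copies was not tested, so values there are uncertain.

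Several other tall peaks near the gap lay over 100 kb from the nearest protein-coding gene, while the Rab10os peak of 135 tags described above lay 9138 bp from Rab10. On chromosome 6 peaks of 240 tags (211 to 272, chr6:3137633-3142075), 220.5 tags (chr6:3131750-3135509) and 187.5 tags (chr6:3182244-3183979) lay 188278 to 236748 bp from Samd9l, an antiviral gene, and the last of them covered the start of the uncharacterized gene LOC115490388. Their control tags were 4.5, 8.5 and 15.5. On chromosome 16 peaks of 149 tags (chr16:3103403-3107323) and 227.5 tags (chr16:3359235-3365920) lay 485075 and 226478 bp from the olfactory receptor gene Olfr161. On chromosome 13 a peak of 136 tags (114 to 161, chr13:3177347-3181439) overlapped Speer6-ps1, a pseudogene of a testis-expressed family. The repeats under these peaks were not analysed here.

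Farther from the gap, some of the tallest peaks stood in or near named genes and others did not. On chromosome 12 a peak of 522.5 tags (479 to 569) was the widest of all 1083, at 10208 bp (chr12:5049719-5059927), and lay 2323 bp from Atad2b. A second wide peak there (chr12:4800957-4807595, 6638 bp) held 275.5 tags (244 to 310). On chromosome 1 a peak of 246.5 tags (217 to 279, chr1:5109302-5114755) lay inside Atp6v1h, which encodes a subunit of the proton pump that acidifies lysosomes, and had 8 control tags. On chromosome 19 a peak of 182.5 tags (157 to 211, chr19:5315826-5319816) lay 7087 bp from Gal3st3. On chromosome 10 the tallest peak (chr10:4911092-4912916, 93 tags, 75.1 to 114) lay in Esr1, the estrogen receptor gene. On chromosomes 2, 5 and 7 the tallest lay in Camk1d (86 tags), Akap9 (65.5 tags) and Zfp579 (104 tags). The peak in Zfp579 had 15.5 control tags and a fold of 4.59, near the lowest in the list, 4. The folds in Camk1d and Akap9 were 9.81 and 12.8. The tallest peaks of the remaining windows, on chromosomes 3, 8, 9, 14 and 15, held 84.5 to 116 tags. The nearest protein-coding gene lay 2832 bp away on chromosome 8, 30714 to 39794 bp away on chromosomes 3, 9 and 14, and 411584 bp away on chromosome 15.

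**Figure D3:**
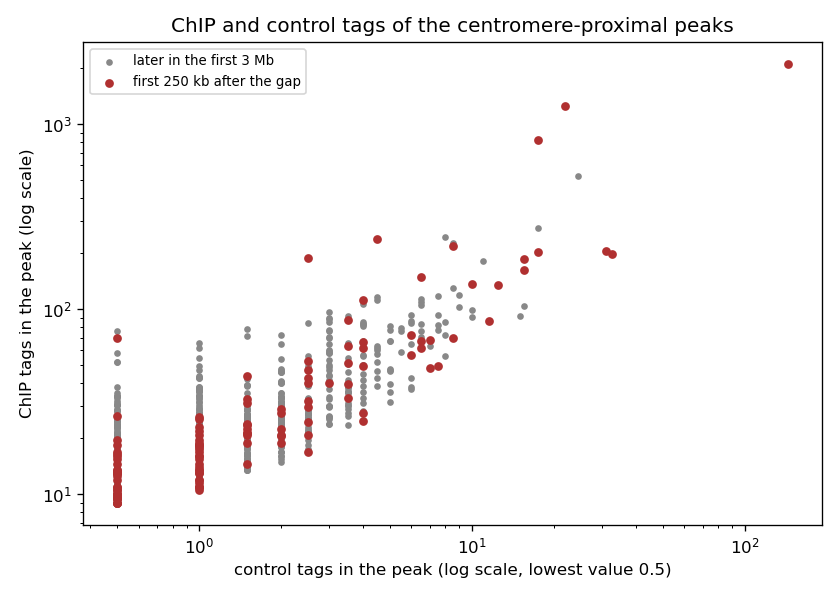
ChIP tags against control tags for the 1083 peaks, both on log axes, with the first 250 kb after the gap in red and later peaks in grey. The peak at Sfi1 stands alone at 2103 ChIP and 144.5 control tags, and the peaks on chromosomes 18 and 4 reach 1255 and 817 ChIP tags with 22 and 17.5 control tags.

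Most peaks of the first 3 Mb were short and low, as in the rest, with slightly larger medians. The median width was 804 bp (95% interval of the median 786 to 821), against 764 bp in the rest (761 to 767), and the median was larger than that of the same chromosome's rest on 16 of 19 autosomes. Peaks at the smallest width, 500 bp, made up 27.8% (25.1 to 30.6%) against 32.5% in the rest. Among peaks wider than 500 bp the medians were 915 and 904.5 bp. There were 19 peaks of 3 kb or more, 1.90 times the density of the rest (1.13 to 3), and 7 of these lay in the first 250 kb. The next 3 Mb and the last 3 Mb of the autosomes held nearly as many, 17 each. The median peak held 18 ChIP tags (17 to 19), against 16.5 in the rest, and was higher on 14 autosomes, equal on 1 and lower on 4. The lowest medians were 13.5 tags on chromosome 17 and 15.5 on chromosome 18, and the highest was 25.5 on chromosome 4.

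Control tags over all peaks were near the level of the rest, with the Sfi1 stretch standing apart. The 1083 peaks held 1.91 control tags per kb (1.82 to 1.99), against 1.95 in the rest (1.93 to 1.96), and the level was higher than in the rest on 7 autosomes. Chromosome 11 stood apart at 4.37 per kb. Without the Sfi1 stretch the level was 1.68 per kb (1.60 to 1.76). Among peaks with a fold of at least 8 the direction turned, with 1.51 per kb in the first 3 Mb and 1.32 in the rest. Fewer peaks stood at the lowest control value, 0.5 tag, than in the rest, 38.6% (35.7 to 41.6%) against 43.3% (42.8 to 43.8%). In the first 250 kb the control level was 3.64 per kb (3.34 to 3.95), and without the Sfi1 stretch 2.09 (1.85 to 2.34), while ChIP tags per kb there were 60.4 with that stretch and 43.6 without it, against 29.2 in the rest. The median fold over control was 12.32 both in the first 3 Mb and in the rest. That is also the fold of a peak with 9 tags, the lowest count, at the lowest control value of 0.5 tag. Control tags come in steps of 0.5, so equal medians of the fold say little about enrichment. Of the 15 peaks with over 10 control tags, 10 lay in the first 250 kb. The control level of the first 250 kb was thus above the rest with the Sfi1 stretch, and without it the interval held the 1.95 per kb of the rest. That comparison took high-control peaks out of 1 side only. The rest kept 284 peaks of over 10 control tags, and without those it stood at 1.60 per kb, below that interval. Whether the Sfi1 stretch alone raised the control level next to the gap was not tested.

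The protein-coding genes of the first 3 Mb carried peaks at a share close to that of all genes. Genes are called marked here if at least 1 peak overlapped them, with 5 kb added at both ends. This held for 363 of 602 genes (60.3%, 56.3 to 64.2%), beside 56.8% of all autosomal protein-coding genes. A strong peak marked 39 genes (6.48%, 4.65 to 8.75%), beside 6.68% of all. Chromosome 19 had 96 of 118 genes marked, and over the other autosomes 267 of 484 were marked (55.2%, 50.6 to 59.7%). Syne1, which encodes a giant protein of the nuclear envelope, and Sfi1 had most peaks, 10 each, with 2 and 7 strong. Cpt1a, the enzyme that admits fatty acids to mitochondria, had 8 peaks and Rgs20 and Frmd8 had 7 each, none of them strong. Esr1, Ssc5d, Gucy1a2 and Coro7 had 6 each. Peaks per gene were not corrected for length, and Syne1 spans 530.5 kb.

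The imprinted cluster on chromosome 6 lies in its window and carried 1 tall peak. Peg10, a gene derived from a retrotransposon and expressed from the paternal copy, and Sgce, which starts beside it on the other strand, shared a peak over both starts (chr6:4746096-4749599) with 118.5 tags (98.1 to 142) and 9 control tags. Of 10 listed genes of this region 8 were marked (80%, beside 56.8% of all autosomal protein-coding genes), Peg10 with 2 peaks and the other 7 with 1 each. Calcr, the calcitonin receptor gene, had a peak of 25.5 tags (16.6 to 37.5). Those at Tfpi2, Pon3, Asb4, Ppp1r9a and Casd1 held 9 to 12.5 tags, at or near the lowest count in the list, 9. Pon1 and Pon2 had none.

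Zinc finger genes taken by symbol were marked in 12 of 13 cases in the windows (92.3%), beside 267 of 442 such genes in the rest of the autosomes (60.4%), and 4 of the 12 had a strong peak. Those 4, Zfp628, Zfp579, Zfp865 and Zfp784, lie together on chromosome 7, where neighbours can share a peak: Zfp865 and Zfp784 both counted the peak at chr7:5028882-5030497 (102.5 tags, 83.6 to 124, 9 control tags). The strong peak in Zfp579 held 15.5 control tags, with a low fold of 4.59. A run of 10 peaks with no gap over 10 kb stretched over Zfp579, Fiz1, Zfp524 and Zfp865 (chr7:4990921-5032690). A second run of 10 peaks, none strong, lay over Frmd8, Slc25a45 and Tigd3 on chromosome 19 (chr19:5843633-5893141). Zfp597 had no peak.

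Of the genes of clustered families in the windows 14 of 44 were marked (31.8%), beside 148 of 1467 in the rest (10.1%). The mix of families was not matched between the 2 sets, so these shares are not a like comparison. All 3 Gstp genes, for glutathione transferases, and all 3 Aldh3b genes, for aldehyde dehydrogenases, had a peak, none strong. They lie in the chromosome 19 window, where 96 of 118 protein-coding genes were marked. Vomeronasal type 1 receptors had 4 of 13 marked, 3 of them by the strong peaks on chromosomes 4 and 18. Of 7 Cd209 genes, which encode lectins that bind pathogens, Cd209b alone was marked, by the tallest peak of the chromosome 8 window (chr8:3912809-3914823, 116 tags, 95.9 to 139, 2832 bp from the gene). Of 8 Akr1c genes, for steroid-reducing enzymes, 2 had a peak. The Lilr, Pir and Olfr genes of the windows, 7 in all, had none. Of 18 genes longer than 200 kb 15 were marked, beside 848 of 926 in the rest.

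Of 12 genes for silencing and chromatin proteins that lie in the windows 8 were marked (66.7%) and none had a strong peak, beside 56.8% and 6.68% of all autosomal protein-coding genes. The first share is near that background, and a list of 12 is too short to read an absence of strong peaks from. Dnmt3a, a DNA methyltransferase, had 5 peaks with at most 26.5 tags. Kat5 and Morc2a had 2 each, with tallest peaks of 28.5 and 28 tags, and Kdm2a had 1 of 31 tags (21.1 to 44.0). No peak was found over Suv39h2 or within 5 kb of it, nor at Asxl2, Ncoa1 or Banf1. Of 18 developmental and signalling genes 15 were marked (83.3%), beside the same 56.8%, and this list too is short. Among them Lrp5, Fosl1, Ovol1 and Rela lie in the chromosome 19 window, where 96 of 118 protein-coding genes were marked. Esr1 alone had strong peaks, 2 of its 6. Sox17, an endoderm transcription factor, had 2 peaks with a tallest of 43.5 tags (31.5 to 58.5), Lrp5, a Wnt co-receptor, had 5 of at most 18.5 tags, and Lif had 4 of at most 23 tags. Mos, Penk and Crem had none. Most of these peaks had few tags, so a gene without a peak may lie just under the lowest count that was called.

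Promoters under peaks were richer in CpG than those without, in the first 3 Mb as in the rest. Of 873 promoter windows of 690 genes there, 133 were touched by a peak (15.2%, 12.9 to 17.8%), beside 13% of all autosomal promoter windows, and 8 by a strong peak, beside 0.86%. Promoters under a peak held a median of 18 CpG (quartiles 10 and 25), against 6 (2 and 19) for those without. In the rest of the autosomes the medians were the same, 18 and 6. The share under a peak was 2.22% for promoters with 0 to 4 CpG (0.898 to 4.52%), 19.2% with 5 to 14 (14.3 to 25%), 29.3% with 15 to 24 (22.6 to 36.9%) and 20.4% with 25 or more (14.5 to 27.3%). In the rest these shares were 1.99%, 15.2%, 29.1% and 17.5%, each inside the interval of the first 3 Mb. The motif TGCCGC, which the imprint-binding protein ZFP57 recognizes, was found on either strand in 24 of the 133 promoters under a peak (18%, 11.9 to 25.6%) and in 76 of 740 without (10.3%, 8.18 to 12.7%), beside 11.6% of all autosomal promoter windows. The motif itself holds a CpG, and its share was not compared at matched CpG content. The Rab10os, Osbp2, Rbfox1 and Suv39h2 windows printed above hold no match.

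**Figure D4:**
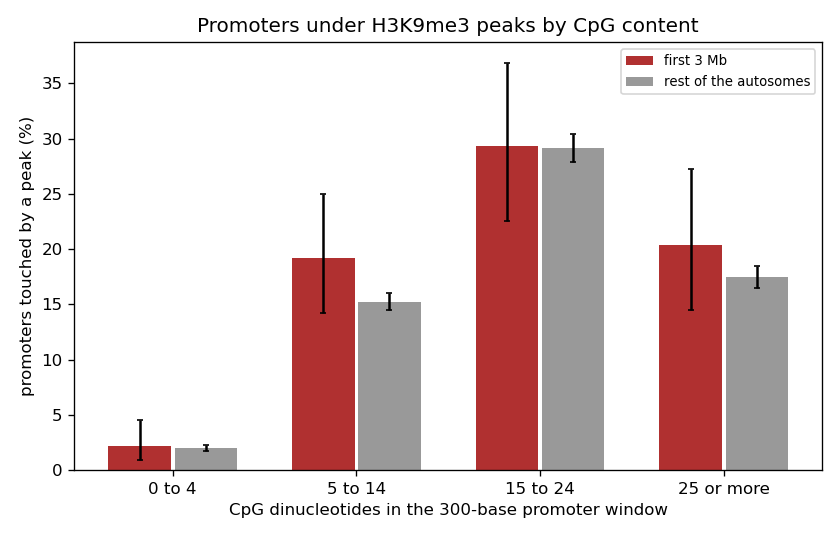
Share of 300-base promoter windows touched by a peak, by the number of CpG dinucleotides they hold, for the first 3 Mb (red) and the rest of the autosomes (grey), with exact Clopper-Pearson 95% intervals. Both rise from about 2% to a highest share at 15 to 24 CpG, and the intervals of the first 3 Mb hold the grey values.

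Of 20 microRNA genes in the windows 9 had a peak within 5 kb (45%), beside 344 of 919 on all autosomes (37.4%). Of these, 8 belong to the Mir290a to Mir295 cluster on chromosome 7, a group active in embryonic stem cells, and all 8 counted the same peak of 12.0 normalized tags at Nlrp12 (chr7:3218929-3219429, 11.5 tags, 5.84 to 20.3). The other was Mir3060 on chromosome 11.

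The opposite chromosome ends held more peaks in all and a like number of strong ones. The last 3 Mb of the 19 autosomes held 1314 peaks or 23.1 per Mb, and the first 3 Mb held 0.824 times as many (0.760 to 0.894). Strong peaks did not differ beyond counting error, 124 against 121, a ratio of 1.02 (0.791 to 1.33). Chromosomes 4 and 11 gave 234 and 185 of the 1314 peaks, against 49 and 93 in their first 3 Mb. Chromosome 19 went the other way, with 22 in the last 3 Mb and 161 in the first. The first 3 Mb had more peaks than the last on 9 autosomes, so the ratio does not describe each chromosome. Control tags were 5.09 per kb in the peaks of the last 3 Mb, against 1.91 in the first, and the summed fold was 6.95 against 11.2. Per peak the medians were equal, 1 control tag and a fold of 12.32 at both ends, though the coarse steps of the control tags limit such medians. In the last 3 Mb 1 peak held 971.5 of the 6076.5 control tags. The 3 Mb that follow the first held 16.4 peaks per Mb, and the first 3 Mb exceeded them 1.16 times (1.06 to 1.27), with 10.6 protein-coding genes per Mb in the first and 6.77 in the next. The next peak lay within 10 kb for 31.7% of peaks in the first 3 Mb (28.9 to 34.6%) and for 29.6% in the rest, which is inside that interval.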

How the data were processed

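H3K9me3 ChIP-seq peaks of 1 library, called against 1 control library, were taken as the authors deposited them. The submitters' processing notes name Bowtie2 2.2.8, HOMER 4.10.1 and the builds GRCm38 and mm10, and per the file headers the columns are those of HOMER findPeaks. Its options are not stated there. Normalized tags per peak, as deposited, are a signal scaled to a library total not given in the header. Values under the median fell on steps of 0.524 (100% within 0.1 of a step), taken as 0.5 tag, and tags per peak were recovered from them. The deposited control tags are a signal with a lowest value of 0.5. The authors' fold is a ratio to the control, the deposited score is the caller's own value, and the deposited p-value was not used. Width is in bp.

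Genes came from RefSeq GRCm38.p6, without 333 genes whose rows stood out of chromosome order and carry scaffold coordinates, which left 20554 autosomal protein-coding genes. A gene belonged to a window when its whole span did. Chromosome lengths were the largest deposited end. Later assembly gaps, repeats and mappability were not analysed here. With 1 library per group no test between samples was made. Intervals are exact Poisson, Clopper-Pearson or order-statistic (for medians), at 95%. The density step was tested on simulated peaks placed at random and independently, so that test says nothing about the intervals where peaks lie in groups. The members, lists and thresholds were chosen with earlier results of these data known. Named genes were the 10 with most peaks (1 of them is not reported here), the nearest to the tallest peak of each autosome and to the tallest 10, up to 4 of each list with most peaks, and Suv39h2, Dnmt3a, Peg10 and Sgce. Others, such as Rbfox1, Osbp2, Pisd-ps2, the remaining list members and the microRNA genes, were picked with their values in view. Other windows, filters, denominators and gene flanks were tried. Python 3.11, scipy 1.17.1.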

Additional observations from a re-analysis of the deposited data

How the results depend on the processing

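The density ratio of 1.21 ranged from 1.20 to 1.27 with 2 or 4 Mb windows, any overlap, the upper part by score, a fold of at least 8, or peaks within 5 kb merged. It was 1.32 by base pairs covered and 1.13 as the median over autosomes. Leaving out 1 autosome gave 1.08 (chromosome 19) to 1.27 (chromosome 17). Per protein-coding gene it was 0.975 (0.917 to 1.04), an interval that holds 1. Among peaks wider than 500 bp the median width was 915 bp and the median tag count 22.75, both still above the rest (904.5 bp and 21.5). The other alternatives for these medians stayed within their intervals. Control tags per kb, 1.91, were 2.02 and 1.82 in windows of 2 and 4 Mb, 1.61 in peaks with at most 10 control tags (1.60 in the rest), 1.18 as the median over peaks (1.10 in the rest), 1.70 without chromosome 11 and 1.68 without the Sfi1 stretch, an alternative chosen after the data were seen. Marked genes, 60.3%, were 50.2% for the span alone (47.5% in the rest), 69.6% with 10 kb on either side (63.9%) and 51.5% for a fold of at least 8 (48.2%). The 4.25-fold density of strong peaks in the first 250 kb was 2.67 in the first 500 kb and 3.36 for a fold of at least 8. The cause of these shifts was not tested. No paired analysis was possible because each group holds 1 library. The median peak rested on 18 tags, which limits statements on single low peaks.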
